A study of Mus musculus with 10 samples.

Results

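Gata2 encodes a zinc-finger transcription factor, and its transcript was followed here across all 10 arrays of a study of bladder inflammation in mice. It is 1 of 4523 named genes for which spot intensities could be read back from the deposited values, and it was represented by 1 probe (A03a2/b2). The gene was chosen from measured values of these same arrays, because its spot was bright on every array and higher on all 8 challenged arrays than on both saline arrays. The difference between challenge and saline is therefore given as a description, without a test.

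GATA factors bind short DNA words built around the letters GATA and often act together with partners such as the FOG cofactors Zfpm1 and Zfpm2, Tal1 or Lmo2. Gata2 is needed for blood stem and progenitor cells and for mast cells, and it is also active in endothelium and in the developing urogenital tract. In mouse it is transcribed from a distal first exon, used mainly in blood cells, and from a proximal one that is used more widely.

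Bladders of wild type C57BL/6J mice (WT) and of mice lacking protease-activated receptor 1 (PAR1-/-, a knockout enriched on the same background) were collected after instillation of saline at 24 h, and of bacterial lipopolysaccharide (LPS) or the neuropeptide substance P (SP) at 4 and 24 h. LPS was given at 100 µg/ml. For SP the labels name 10 µM for WT and 20 µM for PAR1-/- mice, whereas the methods name 10 µM for both, and if the labels hold, genotype and SP dose cannot be told apart in the SP pairs. All mice were female, none received saline for 4 h, and each of the 10 arrays was hybridized with RNA pooled from 8 whole bladders. There was 1 array for each of the 5 conditions of a genotype, so no value has a replicate error. In RNA from whole bladders, fewer cells of a type and less RNA per cell cannot be told apart.

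The arrays differed in brightness. The median intensity of all 4943 probes with values ranged from 10 to 23, and the summed intensity from 70715 to 285242. Both saline arrays and the WT SP 24 h array were the dimmest by sum. A spot counted as above background where it exceeded the most frequent intensity of its array by more than 3 SD, and this held for 26% to 53.3% of probes on 9 arrays but for 11.8% on the WT LPS 24 h array. On that array only 12 probes lay below the most frequent intensity, so that its threshold of 32.8 rested on few spots. The probe of F2r, the gene for PAR1, was above background on 2 of 5 WT arrays (LPS 4 h at 195, SP 4 h at 22) and on 3 of 5 PAR1-/- arrays (LPS 24 h at 18, SP 4 h at 51, SP 24 h at 21). This probe did not separate the genotypes, and where it lies relative to the disrupted part of F2r is not stated in the material used, so the genotypes are those of the labels.

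The 2 start regions of Gata2 are shown because an array probe reports the transcript without telling which start it came from. Each window is 300 bases of the plus strand in RefSeq (GRCm38.p6), 250 bases before and 50 after the start of transcription, written 5′ to 3′. The distal window lies at chr6:88193641-88193940 and the proximal window at chr6:88198414-88198713, 4773 bases downstream. Capitals mark CCAAT words and GC boxes (GGGCGG) on either strand.
Distal Gata2 window: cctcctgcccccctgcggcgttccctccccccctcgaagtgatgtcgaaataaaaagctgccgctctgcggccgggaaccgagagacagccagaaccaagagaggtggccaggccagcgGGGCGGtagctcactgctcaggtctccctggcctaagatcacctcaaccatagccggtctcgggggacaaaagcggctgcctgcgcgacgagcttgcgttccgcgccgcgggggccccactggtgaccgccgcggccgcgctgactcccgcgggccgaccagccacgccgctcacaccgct
Proximal Gata2 window: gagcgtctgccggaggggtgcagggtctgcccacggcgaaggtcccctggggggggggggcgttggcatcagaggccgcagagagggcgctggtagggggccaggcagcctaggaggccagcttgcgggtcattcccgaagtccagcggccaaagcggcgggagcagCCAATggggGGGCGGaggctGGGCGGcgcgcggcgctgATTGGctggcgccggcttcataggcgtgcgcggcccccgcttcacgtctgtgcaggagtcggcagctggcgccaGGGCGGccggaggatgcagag

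Both windows were rich in G and C, with 69.3% in the distal and 73.7% in the proximal one, against a median of 52.7% over 32851 windows of the same length. The proximal window held 2 CCAAT words, 1 on each strand, and 3 GC boxes, whereas the distal window held no CCAAT word and 1 GC box. A CCAAT word was present in 37.4% and a GC box in 35.7% of all windows. The GATA words searched, AGATA or TGATA followed by A or G, were in neither Gata2 window and in 29.8% of all windows. The AP-1 words TGACTCA and TGAGTCA, in 5.2% of all windows, and the NF-kappaB consensus, in 4.51%, were likewise not in these letters on either strand. A match here is a description of the sequence, not of a bound site.

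Before normalization the Gata2 spot of saline-treated bladders read 57 in WT and 48 in PAR1-/- mice. In WT bladders it read 279 at 4 h and 212 at 24 h of LPS, and 914 at 4 h and 73 at 24 h of SP. The PAR1-/- arrays read 297 at 4 h and 192 at 24 h of LPS, and 464 at 4 h and 203 at 24 h of SP. The spot was thus highest on the WT SP 4 h array and lowest on both saline arrays, and the WT SP 24 h array came closest to saline. On every array it stood clear of the background, from 3.83 times the threshold on the PAR1-/- saline array to 41.9 times on the WT SP 4 h array.

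The place of the Gata2 spot among all spots of its array shifted as well. On WT arrays, 120 of 4943 probes were brighter after saline, 40 after LPS 4 h, 25 after LPS 24 h, 10 after SP 4 h and 86 after SP 24 h. On PAR1-/- arrays, 129 were brighter after saline, 39 after LPS 4 h, 115 after LPS 24 h, 83 after SP 4 h and 111 after SP 24 h. Spot brightness depends on the probe as well as on the transcript, so these places compare the same spot across arrays and say nothing of Gata2 RNA against that of other genes.

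Since the arrays differed in brightness throughout, each array was put on a common scale by robust linear regression over the 514 probes above background on all 10 arrays. The slopes of these regressions ran from 0.793 to 1.17. On this scale the normalized level of Gata2 in WT bladders was 132 after saline, 264 and 274 at 4 and 24 h of LPS, and 364 and 177 at 4 and 24 h of SP. In PAR1-/- bladders it was 125 after saline, 213 and 140 at 4 and 24 h of LPS, and 161 and 141 at 4 and 24 h of SP. All 8 challenged arrays remained above both saline arrays, but the lowest of them, PAR1-/- LPS 24 h, was 1.06 times the WT saline array.

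**Figure D1:**
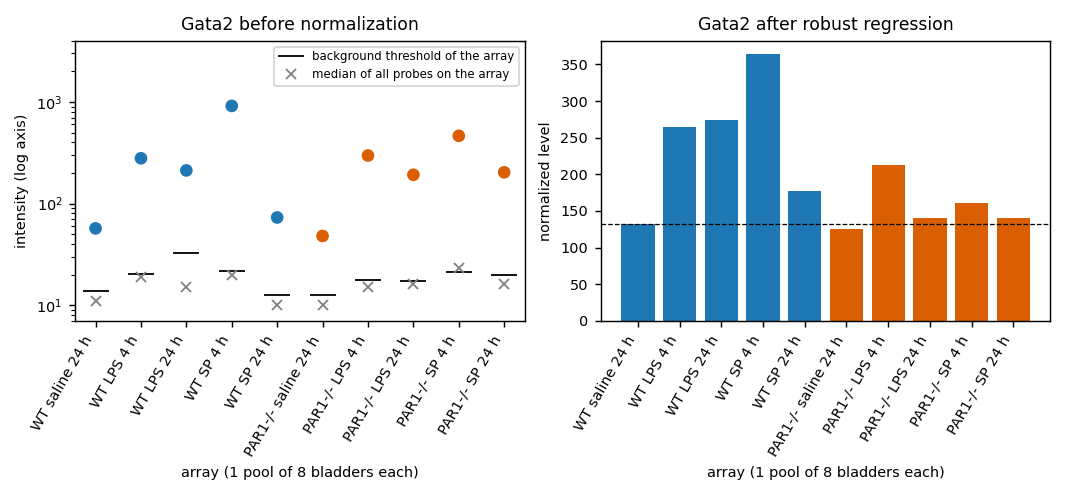
Gata2 on each of the 10 arrays, WT in blue and PAR1-/- in orange, with the intensity before normalization and the background threshold of the array on a log axis (left) and the normalized level (right). The dashed line marks the higher saline array, at a normalized level of 132, and all 8 challenged arrays lie above it, from 140 to 364.

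In the order of normalized levels, WT SP 4 h came first, followed by WT LPS 24 h, WT LPS 4 h, PAR1-/- LPS 4 h, WT SP 24 h, PAR1-/- SP 4 h, PAR1-/- SP 24 h, PAR1-/- LPS 24 h, WT saline and PAR1-/- saline. With no replicate arrays, the only measure of spread came from the pair of saline arrays, which differ in genotype. Over 1052 probes above background on both, the log2 difference between them had an SD of 0.47 (1.39-fold), with 4 probes apart by over 3-fold. The widest gap between neighbours was the 1.33-fold step from WT SP 4 h to WT LPS 24 h, and no neighbours in the order differed beyond that spread. Sorting sets each array beside its nearest values, so small gaps were likely in advance. They say nothing of arrays further apart in the order. The whole range was 2.92-fold on the normalized scale and 19-fold before normalization. Across the 10 arrays the normalized log2 level of Gata2 had an SD of 0.53, and 185 of the 514 probes above background on all arrays varied more.

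Each challenged array was set against the saline array of its genotype. In WT bladders, Gata2 was 2.00 times its saline level at 4 h and 2.08 times at 24 h of LPS, and 2.76 times at 4 h and 1.34 times at 24 h of SP. In PAR1-/- bladders it was 1.71 times at 4 h and 1.12 times at 24 h of LPS, and 1.29 times at 4 h and 1.13 times at 24 h of SP. The WT ratio of 1.34 and the PAR1-/- ratios of 1.12, 1.29 and 1.13 lay within the 1.39-fold spread between the saline arrays. None of the normalized ratios reached the study's criterion of more than 3-fold. WT SP 4 h did so with arrays shifted to equal medians (3.47) or scaled to the 75th percentile (5.76), and WT LPS 24 h with the latter (3.47). The share of probes past 3-fold upward after robust regression was taken over those above background on the challenged or the saline array. Values at background were raised to the threshold of the array. With the threshold of 32.8 on WT LPS 24 h this left 1300 probes, against 2320 for WT LPS 4 h, so these shares compare poorly. The share was 5.39% for WT LPS 4 h, 1.08% for WT LPS 24 h, 3.51% for WT SP 4 h and 0.82% for WT SP 24 h. For PAR1-/- arrays it was 1.43% for LPS 4 h, 1.05% for LPS 24 h, 0.806% for SP 4 h and 1.4% for SP 24 h.

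Before normalization the same ratios were larger. They came to 4.89 and 3.72 for WT LPS at 4 and 24 h, and to 16 and 1.28 for WT SP at 4 and 24 h. The PAR1-/- ratios came to 6.19 and 4 for LPS at 4 and 24 h, and to 9.67 and 4.23 for SP at 4 and 24 h. The median ratio of all probes above background on both arrays moved with them, from 1 for WT SP 24 h to 4.31 for PAR1-/- SP 4 h. Relative to the other probes, Gata2 stood highest in WT SP 4 h, where 65 of 1144 probes (5.68%) had a higher normalized ratio, and in WT LPS 24 h, where 36 of 568 (6.34%) did. It stood lowest in PAR1-/- LPS 24 h, where 489 of 1276 probes (38.3%) had a higher ratio.

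The challenged arrays at 4 h had no saline array of the same time, so the time after instillation and the challenge cannot be told apart for those 4 ratios. The 4 ratios at 24 h, which share the time of their saline arrays, were 2.08 (LPS) and 1.34 (SP) in WT and 1.12 (LPS) and 1.13 (SP) in PAR1-/- bladders. The 4 challenged arrays of a genotype share 1 saline array, so an error in that array would shift all 4 of its ratios alike.

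**Figure D2:**
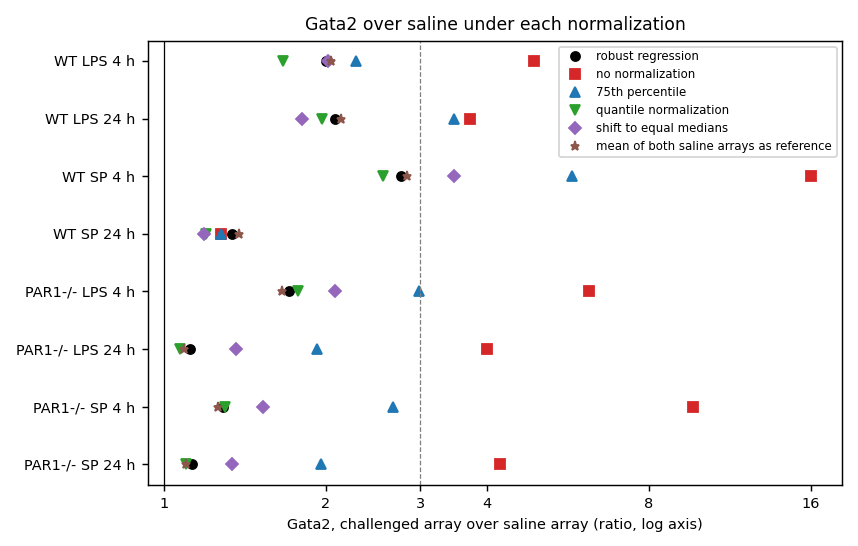
Gata2 on each challenged array over saline (ratio, log axis) under robust regression, under 4 other treatments of array brightness and with the mean of both saline arrays as the reference. The solid line marks 1 and the dashed line 3, and without normalization 7 of 8 ratios lie beyond 3, whereas after robust regression none does.

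A level higher on all 8 challenged arrays than on both saline arrays, the pattern by which Gata2 was chosen, was met by 24 of the 514 probes above background on all arrays (4.67%) after normalization and by 181 (35.2%) before it. Over all 4943 probes with values, 30 (0.607%) met it after normalization. Gata2 showed it under all 5 treatments of array brightness, with the lowest challenged array between 1.02 times (quantile normalization) and 1.28 times (no normalization and scaling to the 75th percentile) the higher saline array. Among the 24 probes, Gata2 took place 18 by the median of its challenged arrays over saline, which was 1.51-fold. Chosen after their values were seen, Rgs4, a regulator of G-protein signalling, led these probes at 3.96-fold, and the immediate-early gene Fos stood at 2.95-fold.

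The first comparison that the choice of Gata2 did not use asked whether its transcript differed between genotypes. After normalization Gata2 was lower on the PAR1-/- array in 5 of 5 conditions, and before it in 3 of 5. The normalized difference, PAR1-/- minus WT on the log2 scale, was -0.08 after saline, -0.31 and -0.97 at 4 and 24 h of LPS, and -1.17 and -0.33 at 4 and 24 h of SP. The PAR1-/- level was thus 2.26-fold lower at SP 4 h and 1.96-fold lower at LPS 24 h, and it was 1.06-fold lower after saline. The mean log2 level was 7.26 in PAR1-/- and 7.83 in WT bladders, a difference of -0.57 (SE 0.30, 95% interval -1.20 to 0.05, 5 pairs).

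This genotype difference did not pass the test. By limma with the condition as a block, over 2126 probes above background on at least 4 arrays, the unadjusted p was 0.0702 and the Benjamini-Hochberg adjusted p was 0.589. The two-sided exact sign-flip permutation test over the 5 pairs gave 0.0625, the smallest p that 5 pairs allow. In the same fit 2 probes (0.0941%) were called, and the median log2 difference over all tested probes was 0.13. The direction of the Gata2 difference rested on the normalization. Before it, the mean difference was 0.04 and the SP 24 h pair read 2.78-fold higher in PAR1-/- bladders.

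The second comparison concerned time after challenge. Gata2 was lower at 24 h than at 4 h in 3 of 4 pairs, by 2.06-fold for WT SP, 1.52-fold for PAR1-/- LPS and 1.14-fold for PAR1-/- SP, and it was 1.04-fold higher for WT LPS. The mean difference, 24 h minus 4 h, was -0.45 on the log2 scale (SE 0.43, 95% interval -1.28 to 0.39). It did not pass the limma test (Benjamini-Hochberg adjusted p = 1), nor the two-sided exact permutation test (p = 0.25, where 4 pairs allow no less than 0.125). Over all probes, 13 (0.611%) were called for time and the median difference was -0.12. Before normalization Gata2 was lower at 24 h in 4 of 4 pairs, with a mean difference of -1.47, of which the WT SP pair, at 914 against 73, gave the largest.

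The third comparison, LPS against SP, showed no common direction. Gata2 was 1.32-fold higher after LPS in PAR1-/- bladders at 4 h and 1.55-fold higher in WT bladders at 24 h. It was 1.38-fold lower after LPS in WT bladders at 4 h, and 1.01-fold lower in PAR1-/- bladders at 24 h. The mean log2 difference, LPS minus SP, was 0.14 (SE 0.32, 95% interval -0.52 to 0.79), with a Benjamini-Hochberg adjusted p of 0.999 by limma and a two-sided exact permutation p of 0.75. limma called 0 probes (0%) for the stimulus, while 54 of 2126 had an unadjusted p under 0.05. The intervals of all 3 differences include changes of Gata2 in either direction, so these 10 arrays do not show that genotype, time or stimulus left it alike.

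**Figure D3:**
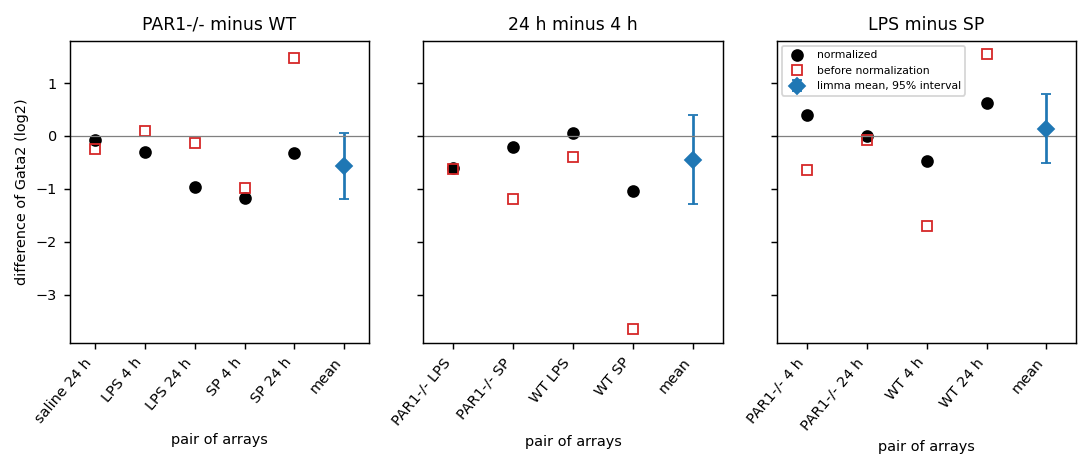
Difference of Gata2 within each pair of arrays (log2, vertical axis) for genotype, time and stimulus, normalized (black) and before normalization (red squares), with the limma mean and its 95% interval in blue. All 5 normalized genotype differences lie below 0, from -1.17 to -0.08, while those before normalization run from -0.98 to 1.48.

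Of the 7 genes in the GATA family list, 4 had a probe with values, among them Gata1, Gata4 and Gata5. Gata5, a factor of heart and gut development, was not above background on any array, with intensities from 9 to 17. Gata1, which drives red cell, platelet and mast cell development, was above background on 6 arrays. In PAR1-/- bladders it read 12 after saline, 30 and 28 at 4 and 24 h of LPS, and 50 and 30 at 4 and 24 h of SP. In WT bladders it read 9 after saline, 31 and 15 at 4 and 24 h of LPS, and 23 and 11 at 4 and 24 h of SP.

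Neither saline array gave a Gata1 signal above background, so its ratios are bounds. They were at least 1.30-fold for WT LPS 4 h, and at least 1.17-fold, 1.18-fold and 1.15-fold for PAR1-/- LPS 4 h, LPS 24 h and SP 24 h. Gata4, a factor of heart, gut and gonad, was above background on 7 arrays, with intensities from 11 to 66. After saline it read 20 in WT and 11 in PAR1-/- bladders. In PAR1-/- bladders the normalized Gata4 level was at least 1.52-fold its saline level for LPS 4 h and 1.83-fold for SP 24 h. In WT bladders it was 2.50-fold below saline at SP 4 h, where the spot before normalization was 1.15 times saline, and 1.56-fold below at SP 24 h, the 2 arrays on which Gata2 was 2.76 and 1.34 times its saline level. The Gata4 spots there, at 23 and 14, barely exceeded their thresholds of 21.8 and 12.6. Both ratios thus rest on values near background, where the scaling of the array weighs most. Neither Gata1 (0.55, adjusted p = 0.589) nor Gata4 (0.36, adjusted p = 0.777) passed the limma test with Benjamini-Hochberg adjustment for genotype.

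**Figure D4:**
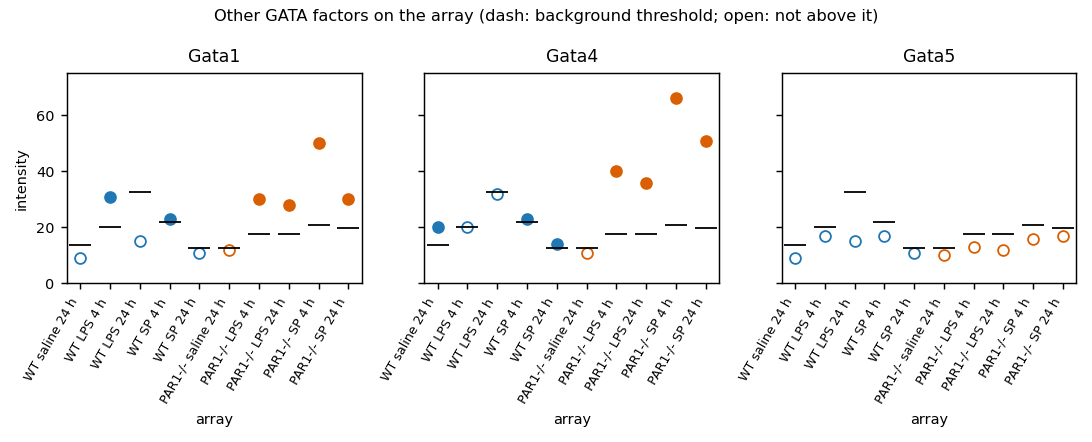
Intensity of the Gata1, Gata4 and Gata5 probes on each array, WT in blue and PAR1-/- in orange, with the background threshold of the array as a dash and open circles where the spot did not exceed it. Gata5 is open on all 10 arrays, Gata1 on 4 and Gata4 on 3.

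The list of GATA partners and blood regulators held 25 genes, of which 21 had values, 10 were tested and 5 were above background on no array. As with nearly all probes on the array, none of the 21 was higher on all 8 challenged arrays than on both saline arrays (0.607% of all probes), and 0 of 10 were called by limma for genotype, time or stimulus (2, 13 and 0 of all 2126 tested), so neither count sets the list apart. Their median genotype difference was 0.36 on the log2 scale, beside 0.13 over all probes and -0.57 for Gata2. Lyl1, a close relative of Tal1, was above background on all 10 arrays, at normalized levels of 257 to 370 after saline and 209 to 359 after challenge, groups that overlap. Zfpm2 ran from 19.9 to 24.0 after saline and from 12.6 to 75.3 after challenge. The erythroid repressor Gfi1b (24.0 to 32.5 after saline, 12.6 to 49.0 after challenge) and the red cell factor Klf1 (24.0 on both saline arrays, 12.6 to 43.3 after challenge) overlapped too. Each 12.6 was on WT LPS 24 h, where the spot read 15, below the threshold of 32.8. On the other challenged arrays Zfpm2 ran from 25.8 to 75.3 and Klf1 from 24.8 to 43.3, above saline. Their saline spots, at 12 to 14, lay near the thresholds of 13.8 and 12.5. Gfi1b, at 19.2 to 49.0 there, still overlapped. Ldb1, the adaptor that joins GATA factors to Lmo2 and Tal1, was among the 5 above background on no array.

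Markers of the cell types known to carry Gata2 were read beside it. Of 23 mast cell genes 16 had values, 8 were tested, and Cma1, Tpsb2, Srgn and Mcpt2 were above background on no array. Cpa3, the mast cell carboxypeptidase, was at normalized levels of 241 and 414 on the saline arrays and 233 to 379 after challenge, and the tryptase Tpsg1 was at 121 and 204 after saline and 68.9 to 388 after challenge. The leukotriene synthase Ltc4s ran from 9.06 to 85.8 after saline and from 8.31 to 90.9 after challenge, and Hdc, which makes histamine, from 21.7 to 28.2 and from 12.6 to 30.9. The 12.6 of Hdc was on WT LPS 24 h, where its spot read 15, below the threshold of 32.8. The lowest Ltc4s values, from spots of 6 and 7, were below background too. The summed normalized level of the 16 mast cell probes was 726 and 845 on the saline arrays and 610 to 976 on the challenged ones. Tpsg1 was highest on WT SP 4 h (388) and WT LPS 4 h (345), 2 of the 3 arrays highest for Gata2, but at 68.9 on PAR1-/- LPS 4 h, where Gata2 stood at 213.

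Of 20 endothelial genes 17 had values, 4 were tested and 8, among them Pecam1, Kdr and Flt1, were above background on no array. Tie1, an endothelial receptor kinase, was at 115 and 118 after saline and 90.7 to 287 after challenge, lowest on WT LPS 24 h, where Gata2 stood at 274. Edn1, the vasoconstrictor endothelin, ran from 83.2 to 105 after saline and from 72.5 to 143 after challenge. The adhesion molecules Icam1 and Vcam1 were above background on 6 and 4 arrays. The summed level of the 17 endothelial probes was 441 and 471 after saline and 363 to 609 after challenge.

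The tissue itself was marked weakly. Among urothelial genes, 9 of 17 had values and 4 were tested, of which Cdh1 ran from 28.2 to 36.2 after saline and from 19.7 to 70.4 after challenge, and the uroplakin Upk2 was above background on 4 arrays. The summed urothelial level was 167 and 168 after saline and 130 to 206 after challenge. Among smooth muscle genes, 7 of 13 had values and 6 were tested, of which Acta2, smooth muscle actin, differed most between the saline arrays, at 43.8 on WT and 363 on PAR1-/-. Myh11 was at 17.3 and 17.9 after saline, 12.6 on WT LPS 24 h and 13.8 on WT SP 24 h, all from spots below background. On the other challenged arrays it ran from 43.3 to 57.2. Smtn (21.7 to 21.9 after saline, 12.6 to 30.0 after challenge) and Tagln (17.3 to 21.9, 12.6 to 36.8) overlapped. The summed smooth muscle level was 163 and 469 after saline and 153 to 336 after challenge.

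Among leukocyte genes, 16 of 23 had values and 6 were tested. Epx, the eosinophil peroxidase, was at 21.9 and 26.4 after saline and at 12.6 to 166 after challenge, with 166 on WT LPS 4 h and 161 on WT SP 4 h. The 12.6 was on WT LPS 24 h, where its spot read 15, below the threshold of 32.8. The time difference of Epx, -1.53, missed the threshold (limma, Benjamini-Hochberg adjusted p = 0.0526). Csf1r went the other way after normalization, at 41.4 and 63.0 after saline and 12.6 to 38.0 after challenge. Before it, the Csf1r spots overlapped, at 20 and 31 after saline and 15 to 70 after challenge. Il5ra (37.0 and 38.8, against 23.7 to 68.7) and S100a9 (28.8 and 34.7, against 12.6 to 36.6) overlapped. The 12.6 of Csf1r and of S100a9 was again a spot of 15 on WT LPS 24 h. The summed leukocyte level was 323 and 351 after saline and 219 to 482 after challenge. Among erythroid and progenitor genes, 6 of 12 had values and 3 were tested, with Flt3, a progenitor receptor, at 67.9 and 122 after saline and 41.3 to 111 after challenge, and the summed level was 146 and 215 against 108 to 196. Among housekeeping genes, 9 of 12 had values on 19 probes, the brightest of them for Ywhaz (83.2 to 96.0 after saline, 60.1 to 99.7 after challenge) and Gapdh (52.1 to 67.9, 31.6 to 92.8). Actb followed (41.5 to 52.1, 23.9 to 52.6). The brightest Rps29 probe was not flat, at 21.9 on WT saline, 104 on WT LPS 4 h and 86.4 on WT SP 4 h. Another tested Rps29 probe stayed between 12.6 and 24 after challenge.

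Over all lists, 0 of 114 probes besides Gata2, of which 9 were above background on all arrays, had the pattern by which Gata2 was chosen, and 0 of 53 tested were called by limma for genotype, time or stimulus. With shares of 0.607% for the pattern over all probes and of at most 0.611% for the calls, these counts do not set Gata2 apart from the lists. Many listed probes read 15 on WT LPS 24 h, below its threshold of 32.8. Their level of 12.6 there lay below most of their saline levels, so that array by itself limited the pattern count. In every list the summed level after challenge overlapped that after saline. These sums include probes above background on no array, and 363 of the smooth muscle saline value of 469 was Acta2 alone. The overlap therefore says little about the cell types. The part of these cell types in the Gata2 values was not tested.

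Over the 10 arrays, the normalized profiles most like that of Gata2 were sought by Pearson r among 466 named probes above background on all arrays, whose median r with Gata2 was -0.0239. These arrays share the conditions and the normalization, so r is a description without a p. The 6 highest were Uncx, a homeobox factor (r = 0.863), Aldh1a1, a retinaldehyde dehydrogenase (0.784), Fcgr1, the high-affinity IgG receptor (0.781), the zinc-finger gene Zfp97 (0.761), Apcs, serum amyloid P (0.758), and Psme1, a proteasome activator subunit (0.743). Uncx was at 96.4 on WT saline, 92.9 on PAR1-/- saline and 240 on WT SP 4 h, its highest array and that of Gata2. Aldh1a1 went from 104 to 242 at LPS 4 h and 222 at SP 4 h in WT bladders, and from 99.1 to 180 and 137 in PAR1-/- bladders. Zfp97 owed its likeness mostly to WT SP 4 h (220) and WT LPS 24 h (81.8), as its other 8 arrays lay between 18.6 and 32.2.

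The 3 lowest were the adaptor Gab2 (r = -0.819), Hs2st1, a heparan sulfate sulfotransferase (-0.813), and H2-Oa, a class II chaperone chain (-0.762). Gab2 was at 142, 133 and 113 on the 3 arrays highest for Gata2, WT LPS 4 h, LPS 24 h and SP 4 h, and between 201 and 281 on the others. Hs2st1 lay at 41.0 on WT LPS 4 h and 41.8 on WT SP 4 h, against 88.4 on WT saline.

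**Figure D5:**
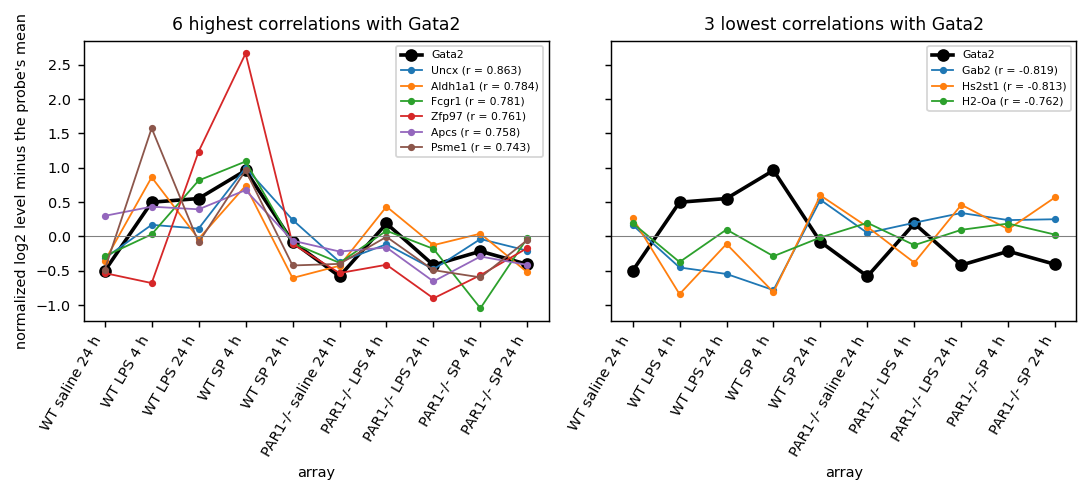
Normalized log2 level minus the probe's own mean on each array for Gata2 (black) and the 6 genes of highest (left) or 3 of lowest (right) correlation with it. Gata2 and the left-hand genes peak on WT SP 4 h, except Aldh1a1 and Psme1, which are highest on WT LPS 4 h.

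Gata2 had no second probe against which its profile could be checked. Elsewhere on the array, the 6 pairs of tested probes that carry the same gene name had a median r of -0.0937 over the 10 arrays, beside 0.237 for all other pairs. These pairs include housekeeping genes with a dim second probe, at 10 to 55 for Gapdh and for Ywhaz and 11 to 47 for Rps29. The value thus says little of a spot as bright as that of Gata2.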

How the data were processed

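RNA pooled from 8 bladders was radioactively labelled and hybridized to 1 Clontech Atlas plastic array per group, and spots were quantified with AtlasImage by the authors. The values they deposited are a score per probe: the log2 values of a probe have a mean of 0 and an SD of 0.3333 to 0.3334 over the 10 arrays, which was read from the values, since the sources used here do not state it. Groups came from the submitters' design text.

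Since spot intensities are whole numbers, a search over values up to 3000 looked for those whose standardization returns the 10 scores, and found them for 4943 of 5030 probes (98.3%). The other 87 were left out. For Gata2, 1 solution was found and 0.0017 were expected by chance. Levels and normalized ratios assume that this solution, and no multiple of it, is the true intensity, because the regression slopes differ between arrays. Ratios before normalization do not depend on it. Background was the density mode of an array, and the threshold lay 3 SD above it. Arrays were normalized on the log2 scale by robust regression (MASS 7.3.60.0.1, R 4.3.3) of each array on the average array, using 514 probes that exceeded background everywhere. Paired differences were fitted with limma 3.58.1 over 2126 probes above background on at least 4 arrays, with Benjamini-Hochberg adjustment, and for Gata2 alone by exact sign-flip permutation. The search and the fits were tested on simulated data. The simulated shifts were larger than the Gata2 differences and the noise was set below the observed spread. The test of the fits therefore says little of differences as small as those of Gata2. The test of the search did not tell a solution from its multiples. Without replicate arrays the p-values measure only the spread between conditions.

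Probes were named from the platform annotation: 4633 with 1 gene, 5 with several and 392 with none, and the Entrez IDs of 4624 were in the RefSeq table. In each list, at most 4 genes above background on at least 4 arrays were named, the brightest first, and in addition the 6 genes most and the 3 least correlated with Gata2. Gata2, the lists and the tests were chosen with earlier results of these data known.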

Additional observations from a re-analysis of the deposited data

How the results depend on the processing

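The ratios of Gata2 over saline kept their direction under every treatment of array brightness. Gata2 was chosen for that direction in these same values, so this is a description and no support for a rise. Without normalization those of PAR1-/- bladders came to 6.19 (LPS 4 h), 4.00 (LPS 24 h), 9.67 (SP 4 h) and 4.23 (SP 24 h), and those of WT bladders to 4.89 (LPS 4 h), 3.72 (LPS 24 h) and 16.0 (SP 4 h). With arrays scaled to the 75th percentile they came to 2.98, 1.93, 2.67 and 1.96 in PAR1-/- bladders, in that order, and in WT bladders to 3.47 (LPS 24 h) and 5.76 (SP 4 h). Quantile normalization, a shift to equal medians and the mean of both saline arrays as reference moved no ratio by more than the spread between the saline arrays. The genotype difference of Gata2 was negative under 12 of 13 alternatives, with adjusted p between 0.456 and 0.958, and turned to 0.04 without normalization. Most of these alternatives could not turn its sign. The filters by number of arrays and the intensity trend leave the estimate of any difference as it is. Every normalized genotype pair was negative, so leaving out 1 pair could not turn it either. The direction is thus tested mainly by the treatments of array brightness. The time difference was negative under all 13 (-1.47 to -0.25, adjusted p 0.13 to 1). The stimulus difference turned to -0.22 without normalization and to -0.03 without the WT 24 h pair (range without 1 pair -0.03 to 0.34, adjusted p over all alternatives 0.921 to 1). The counts of probes called were less stable. The 2 probes called for genotype became 0 under no normalization, the 75th percentile, quantile normalization, the shift, a filter of all 10 arrays or of at least 1, and a threshold of 2 SD, and 0 to 34 without 1 pair (34 without LPS 4 h, 22 without SP 4 h, 6 without saline, 5 without SP 24 h, 0 without LPS 24 h). The 13 called for time became 0 under the 75th percentile and the filter of all 10 arrays, 1 under quantile normalization, 20 with at least 1 array, 24 at 2 SD, 5 in 1 additive fit, and 0 to 20 without 1 pair (0 without WT LPS, 3 without WT SP, 20 without PAR1-/- SP). The 0 called for stimulus became 3 without normalization, 8 under the shift, and 0 to 10 without 1 pair (10 without PAR1-/- 4 h, 9 without WT 4 h, 2 without PAR1-/- 24 h). The 24 probes higher on all 8 challenged arrays became 181 without normalization, 68 at the 75th percentile and 14 under the shift. Of the 6 genes most like Gata2, 2 remained among the 6 without normalization and 2 over the 8 challenged arrays alone. The cause of these changes was not tested. The pairs used here match arrays by condition. No paired analysis by replicate number was possible because each group has 1 array.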
